A study of Homo sapiens with 36 samples.

Results

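The collagen genes are described here in cultured human neural stem cells (hNSC) in which MEIS1 or MEIS2 was raised or knocked out. Members are all gene symbols of the deposited count table that consist of COL, a type number, A and a chain number, which gives 44 of the 28516 genes listed. Of these, 39 had at least 10 counts over the 36 libraries and entered the tests. The other 5 were COL10A1, COL22A1, COL4A3, COL6A5 and COL6A6, with 1 to 5 counts each over all libraries. By structure, the 44 members are 11 fibrillar chains, 6 chains of the basement membrane network, 5 of beaded filaments, 1 of anchoring fibrils, 3 of hexagonal networks, 10 FACIT and related chains (collagens that sit on the surface of fibrils), 4 transmembrane collagens, 2 multiplexins and 2 others.

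The hNSC came from 1 commercial source (Gibco), were grown in serum-free medium on dishes coated with a basement membrane extract, and were harvested 48 h after lentiviral infection, with 6 libraries in each of 6 conditions. Overexpression (MEIS1-OE, MEIS2-OE) was by CRISPR-activation, in which a guide RNA brings a Cas9 that does not cut, together with VP64 and further activation domains, to a promoter. The control ctrl-OE received the same activation viruses with non-targeting guides. In MEIS1-KO and MEIS2-KO a single lentiviral vector carried cutting Cas9 and the guide, and ctrl-KO received it with non-targeting guides. Non-targeting guides are not meant to cut the genome, whereas the knockout guides are. DNA cutting and loss of the target therefore cannot be told apart in comparisons of a knockout with ctrl-KO. For each knockout target a pair of guides was mixed. In all conditions RNA was taken from the whole culture, not from a clone. The targeted genes followed the labels. For MEIS1 the level was 17.8 ± 1.10 CPM (counts scaled to the library size, mean ± SD, n = 6) in ctrl-OE against 310.2 ± 14.3 in MEIS1-OE, and 25.7 ± 1.66 in ctrl-KO against 8.96 ± 1.74 in MEIS1-KO. MEIS2 was at 22.6 ± 1.23 CPM in ctrl-OE against 824 ± 20.04 in MEIS2-OE, and 25.8 ± 1.58 in ctrl-KO against 12.1 ± 0.936 in MEIS2-KO, so the knockout cultures kept part of the transcript.

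Collagens are secreted or membrane-bound proteins built as a triple helix of alpha chains, and every chain is the product of its own gene. Fibrillar collagens (types I, II, III, V and XI among them) form the banded fibrils of connective tissue and cartilage. Type IV forms the sheet-like network of basement membranes, in which the COL4A1 and COL4A2 chains assemble together in most tissues. In the nervous system collagens are best known from the vascular basement membrane, the meninges and the pial surface, and neural stem cells contact such membranes in their niche. MEIS1 and MEIS2 are homeodomain transcription factors of the TALE class. The question the design puts to each collagen gene is whether its mRNA differs when one of these paralogs is raised or knocked out, and whether the paralogs differ.

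Values are deposited counts scaled to the TMM-normalized library size, as CPM. A member was called in a comparison at an adjusted p under 0.05 from the quasi-likelihood F test of edgeR, two-sided and adjusted over all 19689 tested genes, with no threshold on the fold change. Levels of different genes are set against each other only per kb of the annotated main transcript. Total counts were between 15429985 and 22940493 per library (median 20324720), so 3 counts, the floor chosen here, correspond to 0.121 to 0.201 CPM. Lower levels in a single library rest on fewer than 3 counts and are uncertain. Nothing in the labels ties the libraries to separate cultures, so p-values measure the spread between these libraries, which may be technical. Single libraries stood apart. Replicate 6 of ctrl-OE had the highest value of its condition for 24 of the 28 members with at least 1000 counts in all, compared with 34.4% of all genes at that depth. Replicate 2 of ctrl-KO had the lowest value for 27 of the 28 members, compared with 28.2% of all such genes. Replicate 6 of MEIS1-KO had the highest value for 21 of them, compared with 32.1% of all such genes. In MEIS1-OE, replicate 5 was highest for 19 (18.3%) and replicate 3 lowest for 19 (34.0%). Replicate 6 of MEIS2-OE was highest for 18 (20.8%) and replicate 4 of ctrl-KO for 17 (21.5%). Counts of called members were also made without each of these 7 libraries. In bulk RNA, fewer cells of a type and less RNA per cell cannot be told apart.

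Markers of the labelled identity were present, with NES, SOX2 and VIM at 939, 114 and 1992 CPM in ctrl-OE. PAX6, FABP7, HES1, SOX1 and MSI1 were at 20.7, 23.9, 26.1, 35.8 and 78.9 CPM there. All 8 stem and progenitor markers were at 1 CPM or more in every condition. Of the neuron list, DCX, STMN2 and RBFOX3 stayed under 1 CPM in every condition mean, whereas MAP2, TUBB3 and SYT1 were at 265, 168 and 32.3 CPM in ctrl-OE. Of the fibroblast list, DCN and PRRX1 stayed under 1 CPM, whereas FBLN1 and THY1 were at 131 and 93.8 CPM. Mural markers were present as well, with TAGLN at 231, ACTA2 at 105, RGS5 at 92.2, PDGFRB at 83.2 and CSPG4 at 28.8 CPM in ctrl-OE. MYH11 was at 0.133 CPM. Of the endothelial list, KDR, CDH5 and TEK were at 88.5, 16.9 and 15.6 CPM in ctrl-OE. PECAM1, VWF and CLDN5 were at 0.849, 0.944 and 0.0369 CPM. Whether these markers came from the stem cells or from other cells of the culture was not tested.

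All collagen genes together took 0.255% of the normalized counts in ctrl-OE and 0.368% in ctrl-KO. COL2A1, the chain of cartilage type II fibrils, had the highest level per kb in all 6 conditions, with 126 CPM per kb in ctrl-OE and 136 in ctrl-KO. In ctrl-OE it was followed by the basement membrane chains COL4A2 (50.6 CPM per kb) and COL4A1 (48.1), then by COL6A1 (37.4), COL11A1 (36.2) and COL3A1 (32.4). The libraries of COL2A1 lay above all those of COL4A2 there, whereas COL2A1 overlapped with the next gene in MEIS1-OE, ctrl-KO and MEIS1-KO. From COL4A2 down to COL3A1, neighbours in this order overlapped in their libraries, and the next gap was between COL3A1 and COL5A2 (16.7 CPM per kb). In ctrl-KO, COL3A1 stood second at 105 CPM per kb, ahead of COL4A2 (85.6) and COL4A1 (68.0), and neighbours from COL2A1 down to COL4A1 overlapped.

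**Figure D1:**
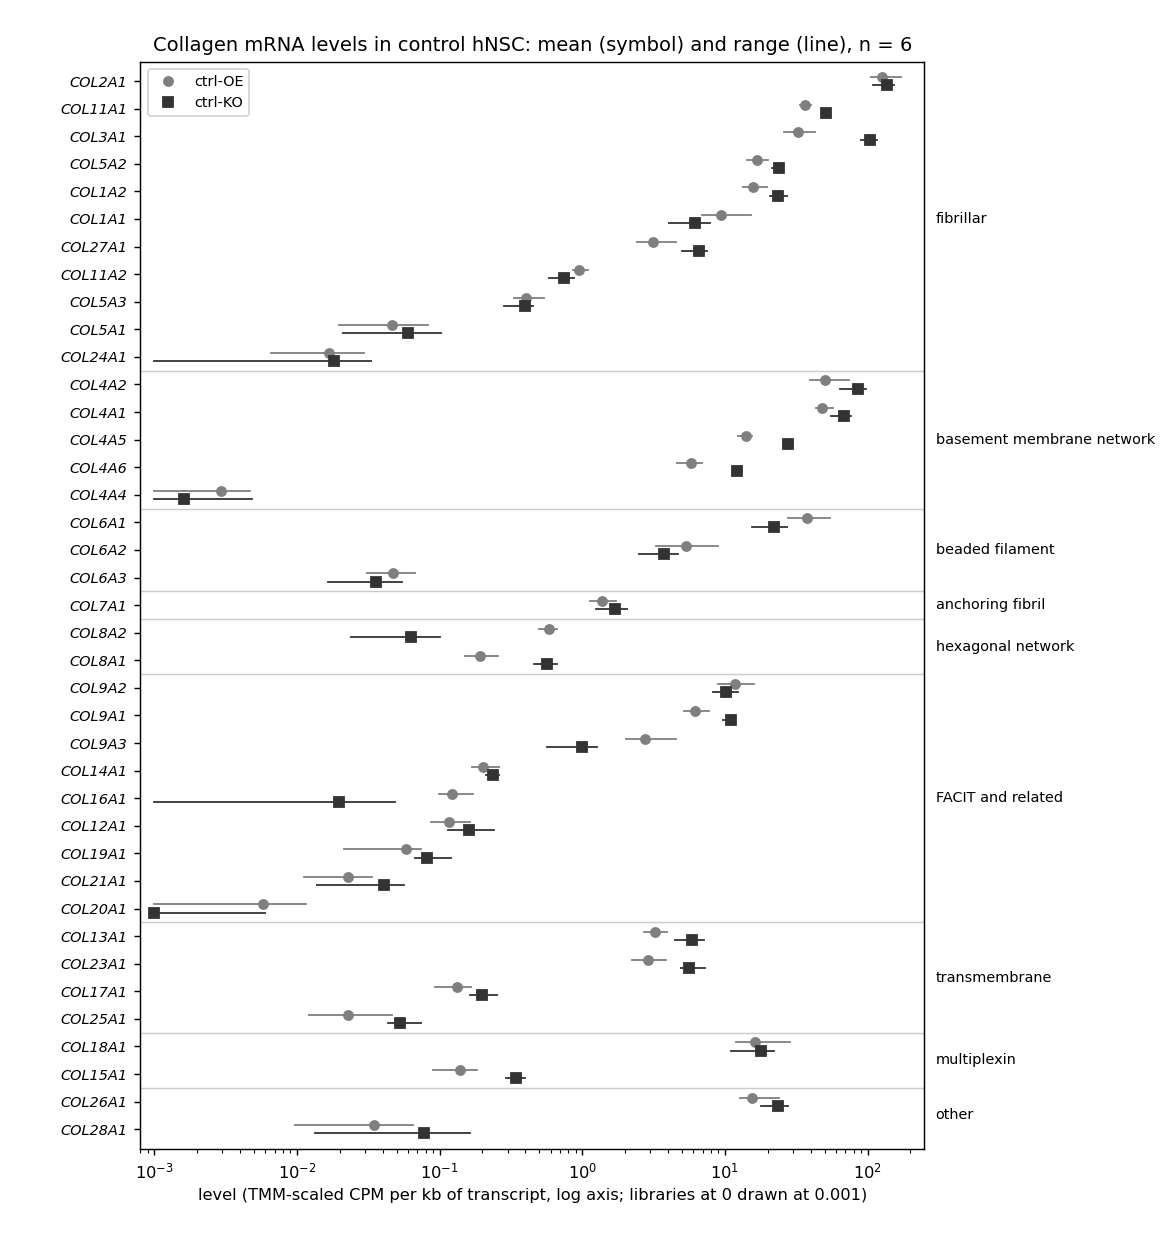
Level of each of the 39 tested collagen genes in CPM per kb of transcript on a log axis, in ctrl-OE (grey circles) and ctrl-KO (black squares), with symbols for the mean of 6 libraries, lines for the range and genes grouped by structural class. COL2A1 is highest in both conditions, and partner chains such as COL6A1 and COL6A3 or COL5A2 and COL5A1 lie far apart.

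The chains of one collagen type were at unequal levels in many cases. COL6A1 was at 37.4 CPM per kb in ctrl-OE, COL6A2 at 5.34 and COL6A3 at 0.0469, although these chains are known to assemble in the same molecule. COL5A2 was at 16.7 CPM per kb, whereas COL5A1, its usual partner, was at 0.0467, with 3 to 26 counts per library over all conditions. COL11A1 exceeded COL11A2 per kb by 38.2 ± 3.30 times (SD, n = 6) in ctrl-OE and 69.3 ± 9.09 times in ctrl-KO. COL4A1 and COL4A2 were close to each other in ctrl-OE, with a ratio per kb of 0.974 ± 0.114. COL4A3 and COL4A4, the chains of the kidney and lung type IV network, had 1 and 23 counts over all 36 libraries, while COL4A5 reached 14.03 CPM per kb and COL4A6 5.75.

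COL4A1 and COL4A2 lie head to head on chromosome 13 and are transcribed away from each other. In GRCh37, COL4A1 spans chr13:110801310-110959504, minus strand, and COL4A2 chr13:110958159-111165556, plus strand, with 1346 bases of annotated overlap of the longest models. The RefSeq start sites are 127 bp apart in GRCh38.p14. The 126 bases between them, chr13:110307158-110307283, are shown on the plus strand because the levels of these neighbours moved apart in MEIS1-OE. COL4A1 starts to the left of the stretch and COL4A2 to the right, and capitals mark the letters of 1 CCAAT box and 1 GC box (GGGCGG), searched on both strands.
COL4A1-COL4A2: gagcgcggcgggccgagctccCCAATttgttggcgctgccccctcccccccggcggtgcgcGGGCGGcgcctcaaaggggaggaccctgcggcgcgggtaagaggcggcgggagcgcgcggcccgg

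Promoter windows of 300 bases (250 before and 50 after the start site, RefSeq, GRCh38.p14) were at hand for 32 of the 44 members, as 44 windows. The 12 members without a window include COL1A1, COL1A2, COL5A2, COL6A1, COL8A1 and COL14A1. Each of these was called in a MEIS1 or MEIS2 comparison below, and the shares do not cover them. Sequence outside the windows was not searched. The letters TGACAG, the core hexamer known for MEIS proteins, were found on either strand in 6 of the 44 windows (13.6%), compared with 15.8% of all 35116 windows. A GC box (GGGCGG) stood in 54.5% of the members' windows and 45.0% of all windows, a CCAAT box (CCAAT) in 31.8% and 34.6%, and TATAAA in 18.2% and 11.5%. The hexamer with 10 bases on each side is shown for 4 of the tested members that held it, read along the strand of the gene, with TGACAG or its reverse complement CTGTCA in capitals. These matches describe the letters only. None of these 4 members was called in a MEIS1 or MEIS2 comparison. The stretch shown above for COL4A1 and COL4A2 holds neither TGACAG nor CTGTCA. COL4A6 is read at chrX:108438467-108438492 on the minus strand, COL5A3 at chr19:10010568-10010593 on the minus strand, COL9A2 at chr1:40317337-40317362 on the minus strand and COL28A1 at chr7:7536065-7536090 on the minus strand.
COL4A6: gggggatgatTGACAGcagacagccc
COL5A3: cccagtccagCTGTCAgcgctccccc
COL9A2: tcctctcaggTGACAGctcacgccgg
COL28A1: aaaaggcaggCTGTCAaccaatgcct

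In MEIS1-OE, 3 collagen genes rose and 2 fell relative to ctrl-OE. The 5 called members were 5 of 39, or 12.8%, compared with 9.10% of all tested genes (5.52% higher, 3.58% lower). The median log2 fold change of the 39 members was -0.027, that of all tested genes -0.00131. COL4A1, a chain of the basement membrane network, rose by 1.79-fold, COL8A1 by 2.31-fold and COL14A1 by 1.55-fold. COL4A5, a further type IV chain, fell by 13.5%, and COL9A1, a FACIT chain found with type II fibrils, fell by 20.8%. None of the 11 fibrillar chains passed, but with the replicate number as a block COL5A2 (adjusted p = 0.00477), COL5A3 and COL11A1 were called, COL11A1 also with RLE size factors and DESeq2.

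The lowest, median and highest levels of COL4A1 were 287, 302 and 376 CPM in ctrl-OE and 493, 562 and 616 CPM in MEIS1-OE (log2 fold change 0.84, SE 0.076, adjusted p = 4.35e-11). Every MEIS1-OE library lay above every control library. COL4A2 had 254, 306 and 481 CPM in ctrl-OE and 257, 359 and 418 CPM in MEIS1-OE (log2 fold change 0.11, SE 0.13, adjusted p = 0.715), and the groups overlapped. Per kb, the ratio of COL4A1 to COL4A2 was 0.974 ± 0.114 (SD, n = 6) in ctrl-OE, with 0.770 to 1.11 over the libraries, and 1.59 ± 0.157 in MEIS1-OE, with 1.45 to 1.90. The ratio is taken within each library, and the ranges did not overlap. The strand setting of the counting is not given in the sources used here, so reads in the overlap of the gene models could have been counted for either gene.

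COL8A1, a chain of the short-chain type VIII network known from endothelial and smooth muscle layers, lies at chr3:99357319-99518070, plus strand (GRCh37). It was low throughout, with 0.837, 1.03 and 1.41 CPM as lowest, median and highest value in ctrl-OE and 1.66, 2.44 and 3.11 CPM in MEIS1-OE (log2 fold change 1.21, SE 0.16, adjusted p = 6.96e-07). Here too the groups did not overlap. Its partner COL8A2 was at 2.71 ± 0.261 CPM (SD, n = 6) in ctrl-OE and 2.36 ± 0.424 CPM in MEIS1-OE (log2 fold change -0.20, SE 0.15, adjusted p = 0.513). The ratio of COL8A1 to COL8A2 per kb was 0.330 ± 0.0552 in ctrl-OE and 0.885 ± 0.146 in MEIS1-OE, again without overlap. Markers of vessel cells, in whose layers types IV and VIII are known, are given beside these values. The endothelial list (PECAM1, CDH5, VWF, CLDN5, TEK and KDR) summed to 107 to 135 CPM in ctrl-OE and 113 to 155 in MEIS1-OE with 0 of 6 called, and the mural list to 469.7 to 626 and 458 to 739 with 1 of 6 called (PDGFRB, log2 fold change 0.30, adjusted p = 0.00548). Of the other lists, the neuronal SYT1 (log2 fold change 0.26, adjusted p = 0.00517), THY1 of the fibroblast list (log2 fold change 0.21, adjusted p = 0.0450) and NGFR (log2 fold change 0.48, adjusted p = 0.0433) were higher, and SOX1 (log2 fold change -0.31, adjusted p = 0.0342) and the astrocyte marker SLC1A3 (log2 fold change -0.50, adjusted p = 0.0140) were lower. Their part in the collagen results was not tested.

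COL14A1, a FACIT collagen that binds the surface of type I fibrils, had 1.35, 1.54 and 2.10 CPM in ctrl-OE and 1.94, 2.49 and 3.36 CPM in MEIS1-OE (log2 fold change 0.63, SE 0.13, adjusted p = 9.22e-04), and 5 of 6 MEIS1-OE libraries lay above all controls. COL4A5 had 80.6, 90.1 and 100.4 CPM in ctrl-OE and 70.0, 79.1 and 88.6 CPM in MEIS1-OE (log2 fold change -0.21, SE 0.058, adjusted p = 0.0147). COL9A1 had 19.2, 22.5 and 28.6 CPM and 13.7, 18.1 and 21.8 CPM (log2 fold change -0.34, SE 0.095, adjusted p = 0.0171). Both decreases were smaller than the increases above, and the libraries of the groups overlapped. Just outside the call were COL16A1 (log2 fold change 0.77, SE 0.26, adjusted p = 0.0562), COL11A1 (log2 fold change -0.16, SE 0.056, adjusted p = 0.0600), COL5A3 (log2 fold change 0.42, SE 0.15, adjusted p = 0.0717) and COL6A1 (log2 fold change 0.43, SE 0.15, adjusted p = 0.0788). Of the alternatives, 9 called COL16A1 (adjusted p down to 0.0185), 5 called COL6A1, 4 COL11A1 and 3 COL5A3. The calls of COL4A1, COL8A1 and COL14A1 held under every alternative tried, whereas COL4A5 lost its call in 4 and COL9A1 in 5 of 20 alternatives, with adjusted p up to 0.191 and 0.186. Without replicate 6 of ctrl-OE, 6 members were called, COL9A1 no longer among them (adjusted p = 0.0697), and without replicate 3 of MEIS1-OE 8.

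**Figure D2:**
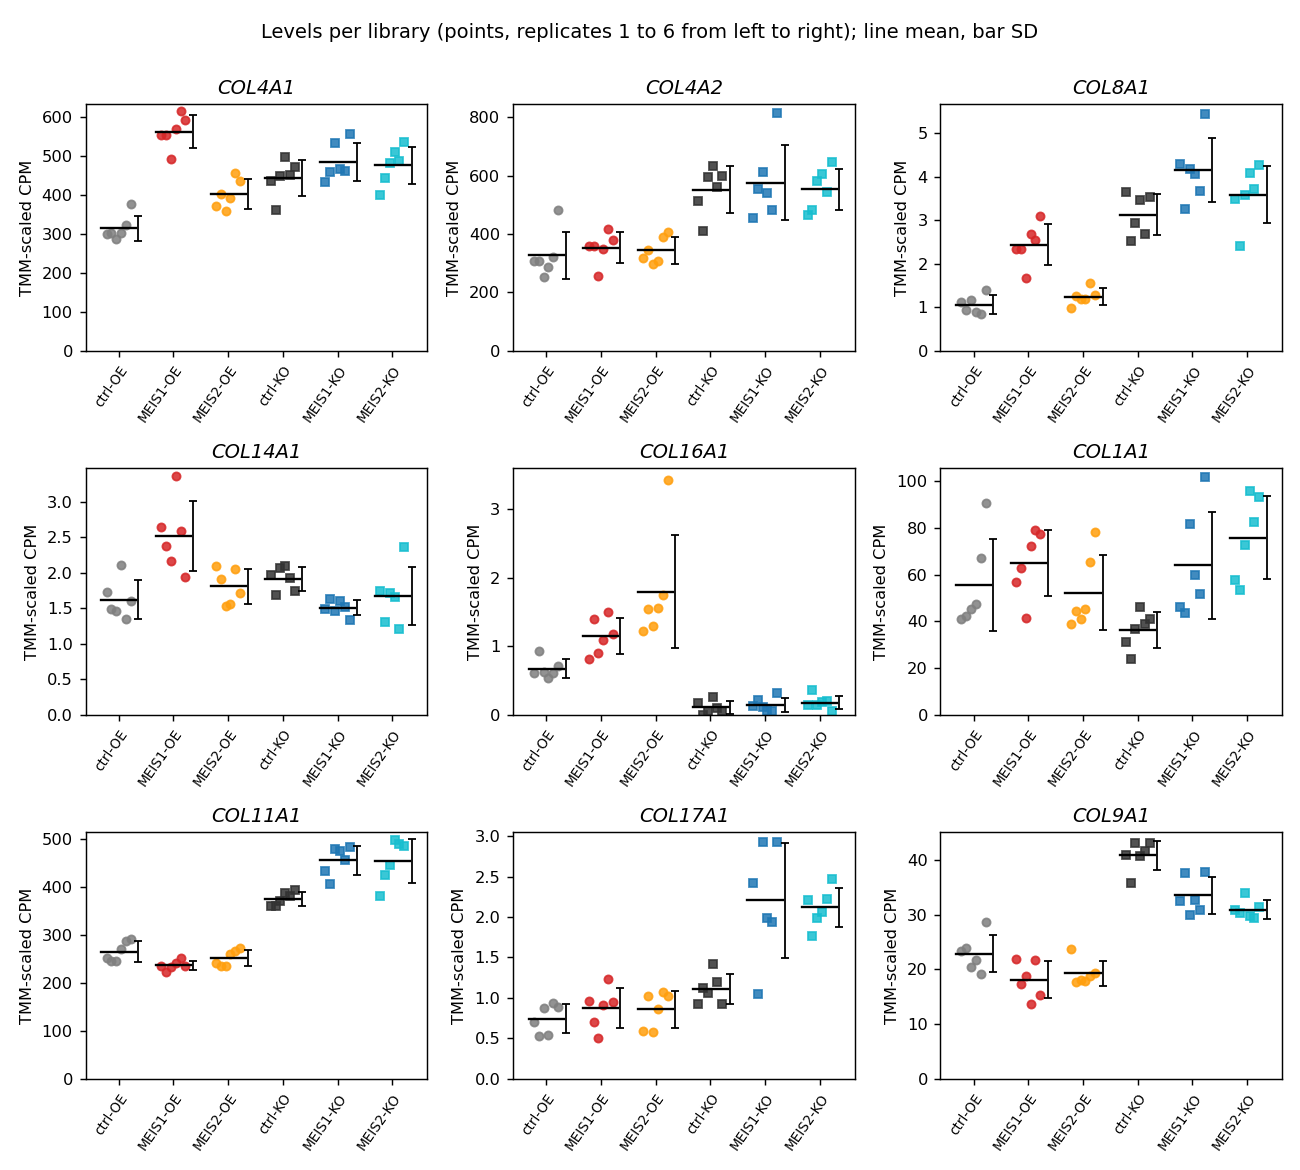
Levels of 9 collagen genes in TMM-scaled CPM in each library (points, replicates 1 to 6 from left to right) for the 3 activation and the 3 knockout conditions, with the mean as a line and the SD as a bar. COL4A1 and COL8A1 are higher in all 6 MEIS1-OE libraries than in ctrl-OE, COL4A2 is not, and COL1A1, COL11A1 and COL17A1 are raised in MEIS2-KO.

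In MEIS2-OE, 2 collagen genes rose relative to ctrl-OE and none fell, that is 5.13% of the 39 members, compared with 1.35% of all tested genes (1.07% higher, 0.279% lower). COL4A1 rose by 1.28-fold and COL16A1, a FACIT-like collagen found near fibrillin microfibrils and thin fibrils, by 2.66-fold. The MEIS1-OE and MEIS2-OE comparisons share the ctrl-OE libraries, and their values are given side by side for this reason. COL4A1 in MEIS2-OE had 358, 398 and 456 CPM (log2 fold change 0.36, SE 0.075, adjusted p = 0.00443), and 4 of 6 libraries lay above all controls. For COL4A2 the log2 fold change was 0.076 (adjusted p = 0.982), and the ratio of both chains per kb was 1.16 ± 0.0635 (SD, n = 6). The endothelial list summed to 130.3 to 171 CPM in MEIS2-OE against 107 to 135 in ctrl-OE, with 1 of 6 called (KDR, log2 fold change 0.36, adjusted p = 0.0137), and 0 of 6 mural genes were called. Their part was not tested. The call of COL4A1 was lost without replicate 4 or 5 of every condition, with an adjusted p of up to 0.0666.

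COL16A1 lies at chr1:32117864-32169920, minus strand (GRCh37). It had 0.537, 0.616 and 0.929 CPM in ctrl-OE and 1.22, 1.55 and 3.42 CPM in MEIS2-OE (log2 fold change 1.41, SE 0.24, adjusted p = 2.73e-04), without overlap between the groups. Replicate 6 of MEIS2-OE held the highest value, and the other 5 reached at most 1.74 CPM. With replicate 6 of every condition left out, the log2 fold change was 1.14 (adjusted p = 0.00214), and the call held under all 20 alternatives. In MEIS1-OE its level was 1.14 ± 0.268 CPM (SD, n = 6), which lies between those of ctrl-OE and MEIS2-OE.

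The direct comparison of MEIS1-OE with MEIS2-OE does not use the control libraries. Here 6 members were called, 4 higher and 2 lower in MEIS1-OE, or 15.4% compared with 7.75% of all tested genes (4.93% higher, 2.82% lower). Higher in MEIS1-OE were COL4A1 (log2 fold change 0.48, SE 0.075, adjusted p = 1.00e-05), COL8A1 (log2 fold change 0.98, SE 0.16, adjusted p = 2.97e-05), COL6A1 (log2 fold change 0.56, SE 0.15, adjusted p = 0.0165) and COL14A1 (log2 fold change 0.47, SE 0.13, adjusted p = 0.0187). All 6 MEIS1-OE libraries of COL4A1 and COL8A1 lay above all MEIS2-OE libraries. COL6A1, a chain of the beaded filaments that surround many cells, had 145, 217 and 249.3 CPM in MEIS1-OE and 109, 146 and 180.4 CPM in MEIS2-OE. Its partner COL6A2 was not called (log2 fold change 0.12, adjusted p = 0.813). Lower in MEIS1-OE were COL8A2 (log2 fold change -0.47, SE 0.15, adjusted p = 0.0382) and COL5A1 (log2 fold change -1.19, SE 0.37, adjusted p = 0.0416). COL5A1 had 0.182, 0.225 and 0.270 CPM in MEIS1-OE and 0.238, 0.537 and 0.831 CPM in MEIS2-OE, with 3 to 26 counts per library over all conditions, and the groups overlapped. The calls of COL4A1 and COL8A1 held under every alternative, while COL14A1 lost its call in 3, COL6A1 in 4, COL8A2 in 8 and COL5A1 in 8 of the alternatives. Without replicate 3 or 5 of MEIS1-OE or replicate 6 of MEIS2-OE, 4 members were called in each case. COL5A1 was lost without each of these 3 libraries, COL8A2 without replicate 3 of MEIS1-OE or replicate 6 of MEIS2-OE, and COL6A1 without replicate 5 of MEIS1-OE. Of the marker lists, PDGFRB (log2 fold change 0.40, adjusted p = 2.36e-04), MSI1 (log2 fold change 0.29, adjusted p = 0.0192) and NGFR (log2 fold change 1.11, adjusted p = 5.54e-06) were higher in MEIS1-OE than in MEIS2-OE, and their part was not tested.

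In MEIS2-KO, 6 members rose and 1 fell relative to ctrl-KO, or 17.9% of the members compared with 10.0% of all tested genes (4.04% higher, 5.98% lower). The 6 were the fibrillar chains COL1A1, COL1A2 and COL11A1, the transmembrane collagens COL13A1 and COL17A1, and the multiplexin COL15A1. In MEIS1-KO, 3 members rose and none fell, or 7.69% compared with 1.46% of all tested genes (1.03% higher, 0.432% lower), namely COL1A1, COL11A1 and COL17A1. None of these 3 calls held under every alternative, as given with each gene. A block on the replicate number added COL5A2 (adjusted p = 0.00870) and COL8A1 (adjusted p = 0.0414) in MEIS1-KO. In MEIS2-KO it added COL5A2, COL5A3 and COL12A1. By class, 3 of 11 fibrillar and 2 of 4 transmembrane chains were called in MEIS2-KO, and 2 of 11 and 1 of 4 in MEIS1-KO, with no test between classes. Over all members the median log2 fold change was 0.16 in MEIS2-KO and 0.14 in MEIS1-KO, compared with -0.0112 and 0.00328 for all tested genes. Both comparisons share the ctrl-KO libraries, and in both DNA cutting cannot be told apart from loss of the target.

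COL1A1, the major chain of type I collagen, lies at chr17:48261462-48278993, minus strand (GRCh37). It had 24.0, 37.9 and 46.2 CPM in ctrl-KO, 43.5, 55.6 and 102 CPM in MEIS1-KO and 53.4, 77.7 and 95.7 CPM in MEIS2-KO. All 6 MEIS2-KO libraries and 4 of 6 MEIS1-KO libraries lay above all controls. The difference was 2.09-fold in MEIS2-KO (log2 fold change 1.06, SE 0.22, adjusted p = 0.00114) and 1.76-fold in MEIS1-KO (log2 fold change 0.82, SE 0.22, adjusted p = 0.0408). In MEIS1-KO the call was lost in 9 of 20 alternatives, without any one of the 6 replicate numbers, without replicate 2 of ctrl-KO and without replicate 6 of MEIS1-KO among them, with an adjusted p of up to 0.201. In MEIS2-KO it held under all 20.

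COL1A2, the partner chain, had 105, 121 and 138 CPM in ctrl-KO and 124, 144 and 164 CPM in MEIS2-KO (log2 fold change 0.27, SE 0.085, adjusted p = 0.0390), with overlapping groups. In MEIS1-KO it was at 139 ± 18.1 CPM (log2 fold change 0.21, SE 0.085, adjusted p = 0.264). The ratio of COL1A1 to COL1A2 per kb was 0.257 ± 0.0344 (SD, n = 6) in ctrl-KO, 0.386 ± 0.0870 in MEIS1-KO and 0.447 ± 0.0672 in MEIS2-KO. The ranges over libraries were 0.197 to 0.287, 0.301 to 0.507 and 0.365 to 0.530, so neither knockout overlapped with ctrl-KO in this ratio. COL1A2 lost its call in MEIS2-KO in 6 of 20 alternatives (adjusted p up to 0.117).

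**Figure D3:**
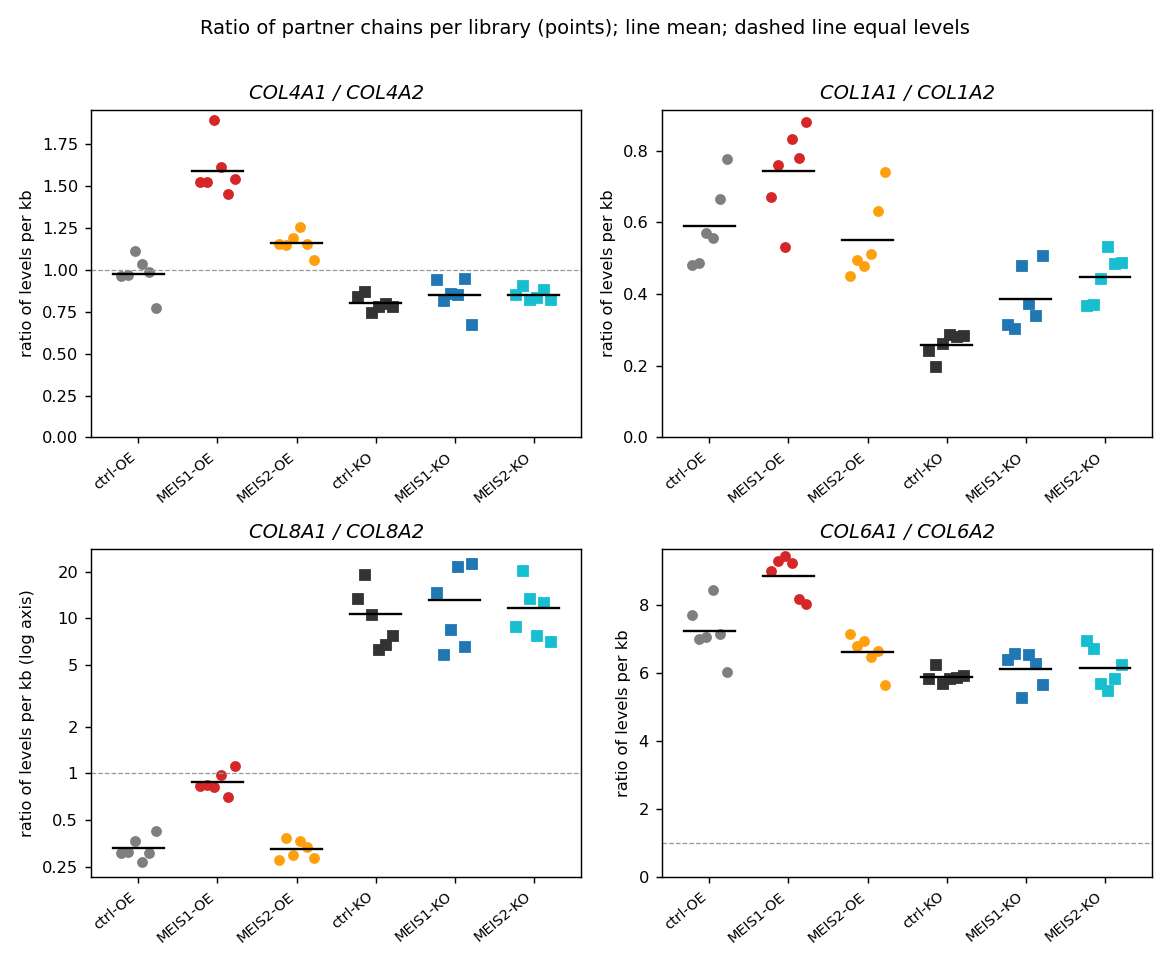
Ratio of the levels per kb of partner chains in each library (points, replicates 1 to 6 from left to right) for COL4A1/COL4A2, COL1A1/COL1A2, COL8A1/COL8A2 (log axis) and COL6A1/COL6A2, with the mean as a line and equal levels dashed. COL4A1/COL4A2 is 1.59 ± 0.157 in MEIS1-OE against 0.974 ± 0.114 in ctrl-OE, and COL1A1/COL1A2 is lowest in ctrl-KO.

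COL11A1, the fibrillar chain that limits the diameter of type II fibrils, lies at chr1:103342023-103574428, minus strand (GRCh37). Its lowest, median and highest levels were 359, 375 and 393 CPM in ctrl-KO, 405, 466 and 482 CPM in MEIS1-KO and 380.1, 465 and 498 CPM in MEIS2-KO. All MEIS1-KO libraries and 5 of 6 MEIS2-KO libraries exceeded all controls. The differences were 1.21-fold in MEIS1-KO (log2 fold change 0.28, SE 0.056, adjusted p = 0.00391) and 1.21-fold in MEIS2-KO (log2 fold change 0.27, SE 0.056, adjusted p = 0.00132). The smaller value relative to COL1A1 went with a small spread, and the call held under all alternatives in MEIS2-KO and was lost only without replicate 3 in MEIS1-KO (adjusted p = 0.0506). COL2A1, the most abundant member, was not called in either knockout (log2 fold change 0.14 in MEIS1-KO and 0.14 in MEIS2-KO).

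COL17A1, a transmembrane collagen of hemidesmosomes in skin, lies at chr10:105791044-105845638, minus strand (GRCh37). It had 0.918, 1.09 and 1.41 CPM in ctrl-KO, 1.05, 2.20 and 2.93 CPM in MEIS1-KO (log2 fold change 0.99, SE 0.20, adjusted p = 0.00319) and 1.76, 2.14 and 2.47 CPM in MEIS2-KO (log2 fold change 0.93, SE 0.20, adjusted p = 0.00167). All MEIS2-KO libraries and 5 of 6 MEIS1-KO libraries were above all controls. COL13A1, a transmembrane collagen of cell junctions, including the neuromuscular one, had 14.1, 18.97 and 22.4 CPM in ctrl-KO and 22.3, 26.3 and 31.4 CPM in MEIS2-KO (log2 fold change 0.51, SE 0.13, adjusted p = 0.0107). Without replicate 6 of every condition the call of COL17A1 in MEIS1-KO was lost (log2 fold change 0.83, adjusted p = 0.0567), and without replicate 5 that of COL13A1 in MEIS2-KO (log2 fold change 0.51, adjusted p = 0.0553), and the cause was not tested. Of the 4 transmembrane collagens, COL23A1 and COL25A1 were not called in either knockout. In MEIS2-KO, COL23A1 (log2 fold change 0.37, SE 0.14, adjusted p = 0.102) was called in 3 of the alternatives, among them the fit on only the conditions compared (adjusted p down to 0.00822).

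COL15A1, a multiplexin that links basement membranes to the fibrils beneath, had 1.52, 1.81 and 2.08 CPM in ctrl-KO and 1.81, 2.55 and 3.53 CPM in MEIS2-KO (log2 fold change 0.54, SE 0.18, adjusted p = 0.0494), and this call was lost in 9 of 20 alternatives (adjusted p up to 0.210), also without replicate 2 or 4 of ctrl-KO or replicate 5 of MEIS1-OE alone. COL18A1, the second multiplexin and precursor of endostatin, was at 96.4 ± 21.7 CPM (SD, n = 6) in ctrl-KO and 115 ± 20.1 CPM in MEIS2-KO, and was not called (adjusted p = 0.516). COL9A1 was the 1 member that fell. It had 35.8, 41.2 and 43.1 CPM in ctrl-KO and 29.3, 30.6 and 34.0 CPM in MEIS2-KO (log2 fold change -0.40, SE 0.092, adjusted p = 0.00361), all knockout libraries lay below all controls, and the call held under all alternatives. In MEIS1-KO its level was 33.5 ± 3.35 CPM (log2 fold change -0.28, SE 0.091, adjusted p = 0.124). COL9A2 and COL9A3, which assemble with COL9A1, had log2 fold changes of 0.17 (adjusted p = 0.461) and 0.30 (adjusted p = 0.423) in MEIS2-KO. Without replicate 2 of ctrl-KO, 5 members were called in MEIS2-KO and 2 in MEIS1-KO, and without replicate 6 of MEIS1-KO 2 in MEIS1-KO.

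Genes of the mural cell list moved in the same comparisons. Of its 6 genes (TAGLN, RGS5, ACTA2, PDGFRB, CSPG4 and MYH11), 3 were called higher in MEIS1-KO and 4 in MEIS2-KO, with none lower. TAGLN, ACTA2 and RGS5 were called in both and CSPG4 in MEIS2-KO. Their summed level was 465 to 566 CPM in the ctrl-KO libraries, 623 to 930.5 in MEIS1-KO and 697 to 954 in MEIS2-KO, while MYH11 stayed at or below 0.1005 CPM in the means of these conditions. The fibroblast and mesenchyme list summed to 275 to 391 CPM in ctrl-KO, 292 to 466 in MEIS1-KO and 309.9 to 394 in MEIS2-KO, mostly from FBLN1 and THY1, with DCN and PRRX1 near 0. Of its 8 genes 0 were called in MEIS1-KO and 1 was higher in MEIS2-KO (POSTN). The endothelial list summed to 169.8 to 185, 170.4 to 226 and 205 to 253 CPM, with 0 of 6 called in MEIS1-KO and 2 of 6 higher in MEIS2-KO (CDH5 and KDR). Of the 8 stem and progenitor markers, VIM was higher and PAX6 lower in both knockouts, and SOX1 and FABP7 were lower in MEIS2-KO. DCX and the astrocyte marker SLC1A3 were lower in MEIS2-KO. The part of these genes in the collagen results was not tested.

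No collagen gene was called between MEIS1-KO and MEIS2-KO (0 of 39, compared with 0.0152% of all tested genes). The count was also 0 at an unadjusted p under 0.05 and with DESeq2. For COL1A1 the log2 fold change between the knockouts was -0.25 (SE 0.21, adjusted p = 0.890) and for COL11A1 0.0044 (SE 0.056). A p above the threshold does not show that the knockouts act alike.

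**Figure D4:**
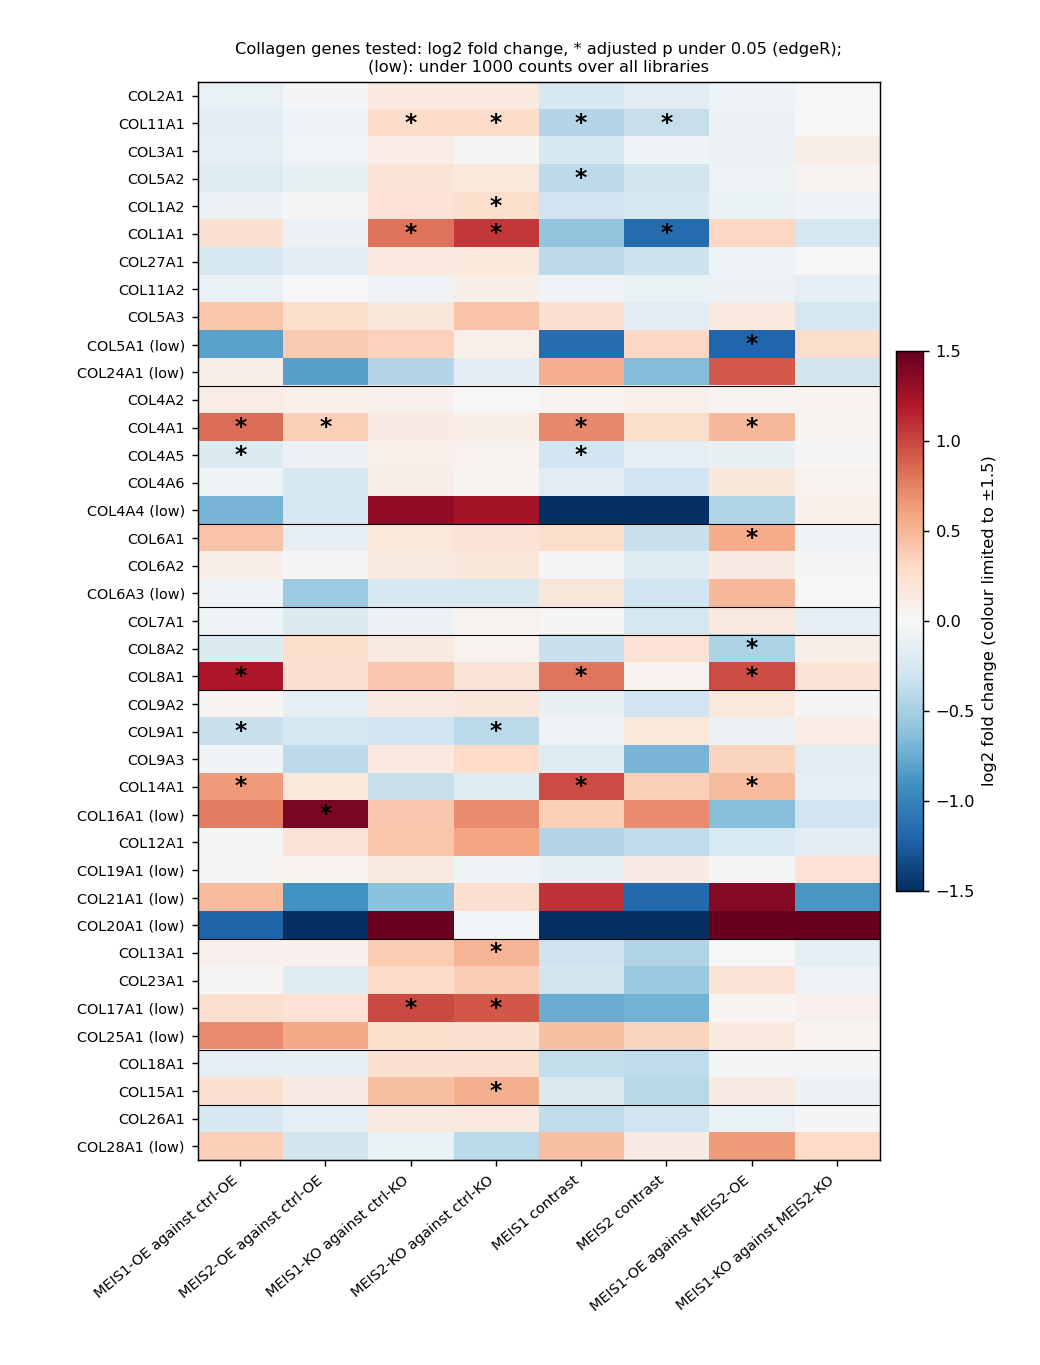
Log2 fold change (colour, limited to ±1.5) of the 39 tested collagen genes in 8 comparisons, grouped by structural class, where an asterisk marks an adjusted p under 0.05 from edgeR and (low) marks genes with under 1000 counts over all libraries. Increases against ctrl-OE were called for COL4A1, COL8A1 and COL14A1 in MEIS1-OE and for COL4A1 and COL16A1 in MEIS2-OE, and COL1A1, COL11A1 and COL17A1 were called in both knockouts.

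The MEIS1 and MEIS2 contrasts subtract the effect of the knockout from that of the activation, each against its own control. They ask which genes respond differently to the 2 manipulations. The knockout part holds DNA cutting as well as loss of the target, and the contrasts do not separate them. In the MEIS1 contrast 6 members were called, or 15.4% compared with 3.48% of all tested genes (2.35% higher, 1.14% lower). Positive were COL4A1 (log2 fold change 0.72, SE 0.11, adjusted p = 1.41e-05), COL14A1 (log2 fold change 0.97, SE 0.20, adjusted p = 0.00160) and COL8A1 (log2 fold change 0.80, SE 0.21, adjusted p = 0.0231). Of these 3, COL14A1 was the one with opposite signs under activation and knockout. It was at 1.51 ± 0.106 CPM (SD, n = 6) in MEIS1-KO against 1.91 ± 0.167 CPM in ctrl-KO, a difference that was not called on its own (log2 fold change -0.34, SE 0.15, adjusted p = 0.333). Negative were COL11A1 (log2 fold change -0.44, SE 0.080, adjusted p = 2.96e-04), COL5A2 (log2 fold change -0.39, SE 0.11, adjusted p = 0.0278) and COL4A5 (log2 fold change -0.28, SE 0.081, adjusted p = 0.0408). COL5A2, the abundant type V chain, had 114 ± 15.3 CPM in ctrl-OE, 100.1 ± 7.10 in MEIS1-OE, 162 ± 10.9 in ctrl-KO and 186 ± 16.9 in MEIS1-KO. In the main fit it was called in neither comparison alone. A block on the replicate number called it in both (adjusted p = 0.00477 in MEIS1-OE and 0.00870 in MEIS1-KO). COL4A1, COL14A1 and COL11A1 kept their calls under every alternative, while COL4A5 lost its call in 9 of 20 and COL5A2 in 8, both also without replicate 6 of ctrl-OE or replicate 2 of ctrl-KO alone, COL4A5 without replicate 4 of ctrl-KO and COL5A2 without replicate 6 of MEIS1-KO. COL8A1 lost its call in 3. Of the mural list, RGS5, ACTA2 and CSPG4 (3 of 6) were called negative in this contrast, with a median log2 fold change of the list of -0.57, and none of the other marker lists had a call. Its part was not tested.

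In the MEIS2 contrast 2 members were called, both negative, or 5.13% compared with 2.57% of all tested genes (1.39% higher, 1.18% lower). They were COL1A1 (log2 fold change -1.15, SE 0.30, adjusted p = 0.0266) and COL11A1 (log2 fold change -0.35, SE 0.080, adjusted p = 0.00849). COL1A1 was at 55.7 ± 19.7 CPM in ctrl-OE and 52.4 ± 15.9 CPM in MEIS2-OE, and replicate 6 of ctrl-OE was its highest library there at 90.9 CPM. Without that library the contrast of COL1A1 was -0.96 (adjusted p = 0.0615), and without replicate 2 of ctrl-KO it was -1.06 (adjusted p = 0.0589), so that 1 member, COL11A1, remained called in each case. With replicate 4 or 5 of every condition left out, no member was called in this contrast. Here ACTA2 and CSPG4 (2 of 6 mural genes) were called negative, with a median of the list of -0.63 on the log2 scale, and their part was not tested.

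More collagen genes were called between the control conditions than in any of the other 8 comparisons. The controls differ in the viral vectors, the number and volume of viruses applied, the Cas9 protein and the activation domains, and these cannot be told apart. Of the 39 members, 25 were called between ctrl-OE and ctrl-KO, 7 higher and 18 lower in ctrl-OE, or 64.1% compared with 51.4% of all tested genes. The median log2 fold change of the members was -0.50, that of all tested genes 0.049. By direction, 27.5% of all tested genes were higher and 23.9% lower in ctrl-OE. Lower in ctrl-OE were all 4 transmembrane collagens, 4 of 5 tested chains of the basement membrane network and 5 of 11 fibrillar chains. COL3A1, a fibrillar chain of vessels and soft tissue, had 143, 177 and 236 CPM in ctrl-OE and 497, 567 and 643 CPM in ctrl-KO (log2 fold change -1.69, SE 0.089, adjusted p = 1.15e-18). COL8A1 (log2 fold change -1.56, SE 0.16, adjusted p = 1.15e-10) and COL15A1 (log2 fold change -1.29, SE 0.22, adjusted p = 3.35e-06) followed. None of these 3 overlapped between the controls.

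Higher in ctrl-OE were COL8A2, COL16A1, COL9A3, COL6A1, COL1A1, COL6A2 and COL11A2. COL8A2 had 2.32, 2.76 and 3.09 CPM in ctrl-OE and 0.112, 0.286 and 0.471 CPM in ctrl-KO (log2 fold change 3.14, SE 0.22, adjusted p = 4.02e-15), and COL16A1 had 0.537, 0.616 and 0.929 against 0, 0.0774 and 0.262 CPM (adjusted p = 3.92e-06). The mean of COL16A1 in ctrl-KO was below the level of 3 counts in a library, so no fold is given. Partner chains moved in opposite directions in several cases. The ratio of COL8A1 to COL8A2 per kb was 0.330 ± 0.0552 (SD, n = 6) in ctrl-OE and 10.6 ± 4.92 in ctrl-KO. COL8A2 had only 2 to 9 counts per library in ctrl-KO, so the size of the ratio there is uncertain. The ratio of COL1A1 to COL1A2 was 0.590 ± 0.114 in ctrl-OE and 0.257 ± 0.0344 in ctrl-KO. COL9A3 was higher (log2 fold change 1.47, SE 0.19, adjusted p = 3.71e-08) while COL9A1 was lower (log2 fold change -0.84, SE 0.092, adjusted p = 6.18e-10). COL2A1 was at 639.9 ± 123 CPM in ctrl-OE and 690.3 ± 74.5 CPM in ctrl-KO and was not called. Leaving out replicate 6 of ctrl-OE or replicate 2 of ctrl-KO gave 24 called members in each case, and COL1A1 lost its call without the former (adjusted p = 0.0913), COL11A2 without the latter (adjusted p = 0.0560) and COL6A2 without either one. COL17A1 lost its call without replicate 4 of ctrl-KO (adjusted p = 0.0842). Marker lists differed as well. In ctrl-OE, 7 of 8 stem and progenitor markers, 3 of 5 tested neuron markers, 5 of 6 endothelial and 4 of 8 fibroblast markers were lower and none of them higher. Of the astrocyte list 3 of 5 were lower and 1 higher, of the mural list 1 of 6 lower and 2 higher and of 5 oligodendrocyte lineage markers 1 lower and 1 higher. The neural crest markers NGFR (2.99 CPM in ctrl-OE, 0.424 in ctrl-KO, log2 fold change 2.82, adjusted p = 3.22e-13) and SOX10 (0.255 CPM in ctrl-OE, with 0 counts in ctrl-KO) were higher in ctrl-OE. The stem and progenitor list summed to 2930.4 to 3799 CPM in ctrl-OE and 4334 to 4846 in ctrl-KO, the neuron list (mostly MAP2 and TUBB3) to 404 to 585 and 965 to 1009, the endothelial list to 107 to 135 and 169.8 to 185, the fibroblast list to 212 to 312 and 275 to 391, the astrocyte list to 8.46 to 14.7 and 28.1 to 32.6 and the mural list to 469.7 to 626 and 465 to 566. Their part was not tested.

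**Figure D5:**
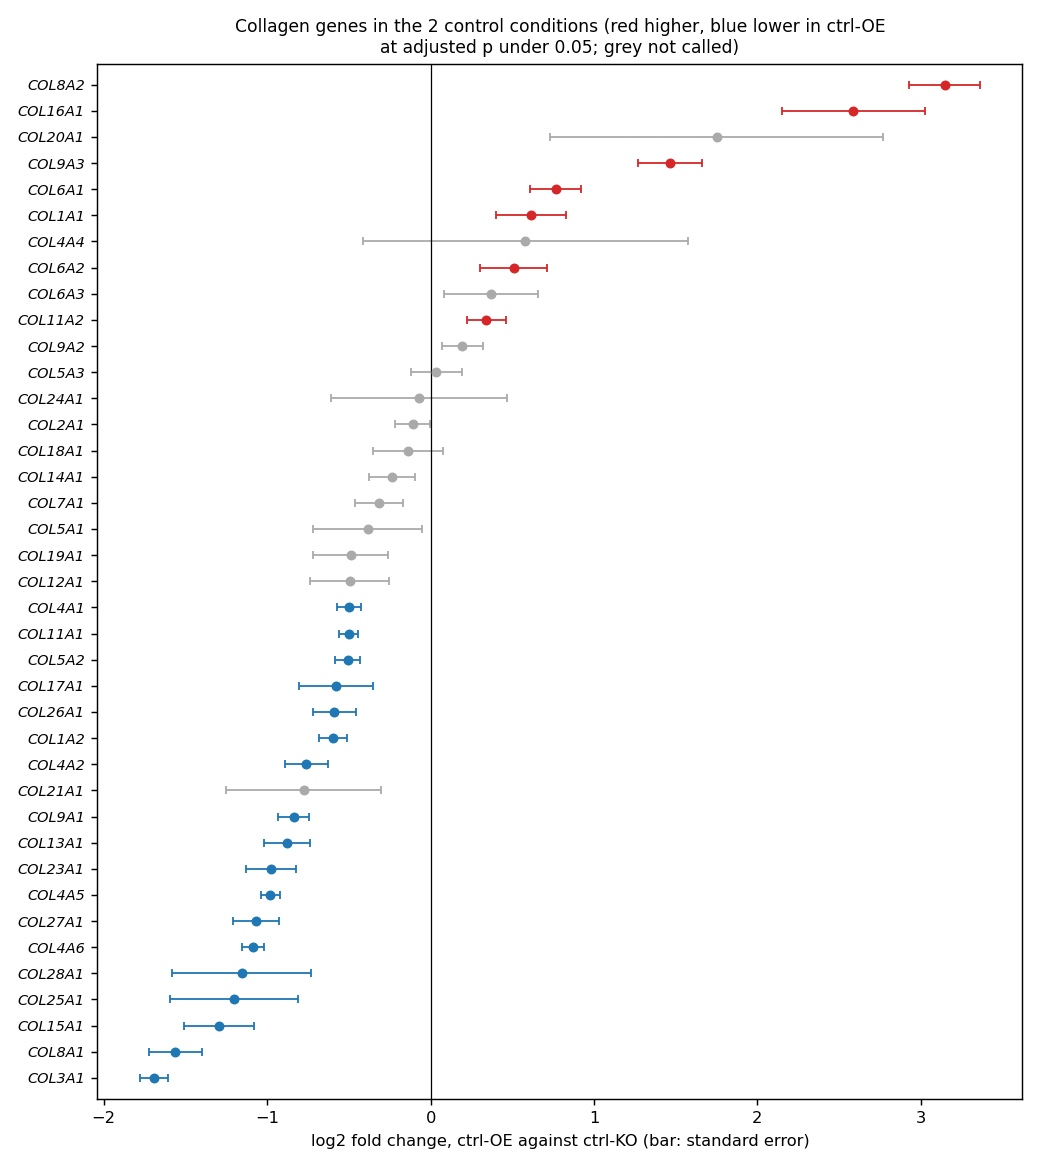
Log2 fold change with its standard error for the 39 tested collagen genes between ctrl-OE and ctrl-KO, ordered by value (red higher and blue lower in ctrl-OE at an adjusted p under 0.05, grey not called). COL8A2 at 3.14 and COL3A1 at -1.69 mark the ends of the range.

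Collagen chains are modified and folded in the endoplasmic reticulum, where prolyl hydroxylases act on prolines and so stabilize the triple helix. Among 20 genes of modification and folding, 2 rose in MEIS1-OE, 1 rose in MEIS2-OE, 2 rose in MEIS1-KO, and 1 rose and 1 fell in MEIS2-KO. Over all tested genes, 9.10%, 1.35%, 1.46% and 10.0% were called in these comparisons, so that the shares of the list in MEIS1-OE and MEIS2-KO (2 of 20 each) were near those of all genes. The median log2 fold change of the list lay between -0.019 and 0.082 in these 4 comparisons. P4HA1, the catalytic subunit of the main prolyl 4-hydroxylase, rose in MEIS1-OE (log2 fold change 0.33, SE 0.053, adjusted p = 1.89e-05), as did LEPREL2 (P3H3; log2 fold change 0.52, SE 0.13, adjusted p = 0.00702). P4HA2, the catalytic subunit of a second isoenzyme, rose in MEIS1-KO (log2 fold change 0.37, SE 0.076, adjusted p = 0.00449) and MEIS2-KO (log2 fold change 0.53, SE 0.075, adjusted p = 1.17e-05), and all libraries of both knockouts lay above all of ctrl-KO. LEPREL1 (P3H2), a prolyl 3-hydroxylase, rose in MEIS2-OE (log2 fold change 0.27, SE 0.061, adjusted p = 0.00818) and in MEIS1-KO (log2 fold change 0.27, SE 0.061, adjusted p = 0.0136). TMEM38B, an ion channel of the endoplasmic reticulum, fell in MEIS2-KO (log2 fold change -0.23, SE 0.063, adjusted p = 0.0162).

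Among 14 genes of propeptide cleavage and crosslinking, 1 was called in MEIS1-OE, none in MEIS2-OE, and 1 in each knockout. Over all tested genes, 9.10% were called in MEIS1-OE, 1.35% in MEIS2-OE, 1.46% in MEIS1-KO and 10.0% in MEIS2-KO. The share of the list was above that of all genes in MEIS1-KO, from 1 gene, and below it in the other comparisons. Medians of the log2 fold change of the list were from -0.00106 to 0.069. ADAMTS3, a protease that removes the amino-terminal propeptide of type II procollagen, fell in MEIS1-KO (log2 fold change -0.43, SE 0.077, adjusted p = 0.00124) and MEIS2-KO (log2 fold change -0.63, SE 0.077, adjusted p = 1.42e-06), with all knockout libraries below all controls. ADAMTS14, a related procollagen protease, was called in MEIS1-OE (adjusted p = 0.0321) at 0.00779 CPM in ctrl-OE and 0.0855 CPM in MEIS1-OE, both below the level of 3 counts in a library, so no fold is given.

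Among 10 collagen receptors, DDR1, a receptor tyrosine kinase activated by collagen, rose in MEIS1-OE from 340.1 ± 60.3 to 658 ± 70.0 CPM (SD, n = 6; log2 fold change 0.95, SE 0.086, adjusted p = 4.56e-11), and all 6 libraries lay above the controls. It was also higher in MEIS1-OE than in MEIS2-OE (log2 fold change 0.90, SE 0.086, adjusted p = 1.80e-10). ITGA11, the integrin alpha chain that binds fibrillar collagens, rose in MEIS1-OE (log2 fold change 1.47, SE 0.26, adjusted p = 8.15e-05) and MEIS2-OE (log2 fold change 1.37, SE 0.26, adjusted p = 0.00131), from a low level of 0.351 ± 0.145 CPM in ctrl-OE. It was also called higher in MEIS2-KO (adjusted p = 0.00409), at 0.516 ± 0.179 CPM against 0.176 ± 0.101 CPM in ctrl-KO, which is near the level of 3 counts in a library, so no fold is given. ITGA1, the alpha chain that prefers type IV collagen, rose in MEIS2-KO (log2 fold change 0.33, SE 0.095, adjusted p = 0.0200). The shares called over all tested genes were 9.10% in MEIS1-OE, 1.35% in MEIS2-OE and 10.0% in MEIS2-KO, beside 2, 1 and 2 of the 10 receptors. The median log2 fold change of the receptors lay between -0.16 and 0.075 in the 4 comparisons. In MEIS1-KO none of the 10 receptors was called, and the smallest adjusted p of the list was 0.0899.

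Of 11 tested matrix partners, 1 rose and 1 fell in MEIS1-OE, none was called in MEIS2-OE, 1 rose in MEIS1-KO, and 3 rose and 1 fell in MEIS2-KO, beside 9.10%, 1.35%, 1.46% and 10.0% of all tested genes, with medians of the log2 fold change from -0.081 to 0.21. COMP, a cartilage protein that binds fibrillar collagens, rose in MEIS1-OE (log2 fold change 1.53, SE 0.21, adjusted p = 1.17e-06), and NID2, a linker of the basement membrane network, fell (log2 fold change -0.39, SE 0.072, adjusted p = 1.56e-04). SPARC, a collagen-binding matricellular protein, rose in MEIS1-KO (log2 fold change 0.22, SE 0.056, adjusted p = 0.0339) and MEIS2-KO (log2 fold change 0.23, SE 0.056, adjusted p = 0.00632). In MEIS2-KO, BGN, a small proteoglycan of fibrils, and MATN2, an adaptor protein of matrix filaments, rose as well (log2 fold change 0.43, SE 0.12, adjusted p = 0.0136 and log2 fold change 0.21, SE 0.061, adjusted p = 0.0256), and NID2 fell (log2 fold change -0.26, SE 0.070, adjusted p = 0.0141).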

How the data were processed

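RNA-seq of 36 libraries (6 conditions of 6) was analysed. Poly-A RNA was sequenced with a stranded kit, and the authors trimmed reads (Trimmomatic 0.39, per the submitters' processing notes), aligned them to hg19 with STAR (2.7.0a in these notes, 2.4.2a in the design text) and deposited raw counts per gene. The annotation and strand setting of the counting are not given in the sources used here.

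Genes with at least 10 counts over all libraries (19689 of 28516) were tested with the quasi-likelihood F test of edgeR 4.0.16 in R 4.3.3, with TMM factors and 1 fit of all 6 conditions, for 9 comparisons. The p-values are two-sided and Benjamini-Hochberg adjusted over all tested genes. SE was derived from the log2 fold change and F. Alternatives were RLE factors, other filters, a replicate block, fits on only the conditions compared, DESeq2 1.42.0, a prior count of 2 in place of 0.125 and leaving out replicates. Levels per kb use transcript lengths of GENCODE 44 mapped to GRCh37. Collagens called in a comparison were named, together with their partner chains and the most abundant members. Lists covered collagen modification, cleavage, receptors, matrix partners and cell type markers. Of the marker lists, 1 gene is not reported here. The members and lists were chosen with earlier results of these data known. The test was checked on simulated data.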

Additional observations from a re-analysis of the deposited data

Results flagged for a closer look

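Of 96 groups of 6 libraries (16 members in 6 conditions), 4 held a library whose gap to its nearest neighbour was large relative to the range of the group (Dixon's test, 95% level), and chance alone gives about 1 in 20 groups. COL5A1 was at 1.33 CPM in replicate 6 of MEIS1-KO, with 0.418 to 0.630 CPM in the other 5 libraries. COL16A1 was at 3.42 CPM in replicate 6 of MEIS2-OE, with 1.22 to 1.74 CPM in the others. COL9A1 was at 23.7 CPM in replicate 1 of MEIS2-OE, with 17.6 to 19.4 CPM in the others. In ctrl-KO it was at 35.8 CPM in replicate 2, with 40.7 to 43.1 CPM in the others, and this library had the lowest value of its condition for 27 of the 28 members with at least 1000 counts.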

How the results depend on the processing

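Leaving out replicate 6 of ctrl-OE, replicates 2 and 4 of ctrl-KO, replicate 6 of MEIS1-KO, replicates 3 and 5 of MEIS1-OE or replicate 6 of MEIS2-OE, each alone, was chosen after the levels per library had been seen. Leaving out replicates, one number or one such library at a time, gave 3 to 8 called members in MEIS1-OE, 1 to 3 in MEIS2-OE, 1 to 3 in MEIS1-KO, 4 to 8 in MEIS2-KO, 3 to 6 in the MEIS1 contrast, 0 to 2 in the MEIS2 contrast, 2 to 6 between MEIS1-OE and MEIS2-OE, 0 between the knockouts and 23 to 25 between the controls. RLE size factors, both other filters, fits on only the conditions compared and DESeq2 kept every such count within 1.5 times. Of the 56 calls, 33 held under every alternative that gave them a value, 13 of them among the 31 calls outside the comparison of the controls, and no call changed its sign.

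With the replicate number as a block, 10 members were called in MEIS1-OE and 5 in MEIS1-KO, and the other counts stayed within 1.5 times. The members gained were COL5A2, COL5A3, COL11A1, COL6A1 and COL16A1 in MEIS1-OE and COL5A2 and COL8A1 in MEIS1-KO, COL5A2, COL5A3 and COL12A1 in MEIS2-KO, COL5A2 in the MEIS2 contrast and COL12A1 between the controls. Other alternatives, but not the block, added calls of COL4A6 in MEIS2-OE and the MEIS2 contrast, COL23A1 in MEIS2-KO and COL7A1 between the controls. Libraries with the same number in different conditions correlated in their deviations with a mean of 0.118 (lowest -0.589, above 0.1 in 50 of 90 pairs), those with different numbers with a mean of -0.0253 (above 0.1 in 155 of 450 pairs). Of 36 libraries, 15 correlated best with their own number. No source says what the number marks and not every pair correlated, so the block was not used as the main fit, although these values are a hint that some numbers share more than a name.

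Depth limits the low members. The tested members COL4A4, COL20A1, COL24A1 and COL21A1 had at most 2, 3, 5 and 6 counts in any library, COL28A1 and, in the knockout conditions, COL16A1 were near 3 counts in many libraries, and the 5 untested members had 1 to 5 counts each over all libraries.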

Other observations

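Summed over classes, the fibrillar chains made up 1366 ± 216 CPM (SD, n = 6) in ctrl-OE and 2018 ± 174 CPM in ctrl-KO, the basement membrane network 771 ± 121 and 1259 ± 133 CPM, and the beaded filaments 176 ± 45.9 and 106 ± 18.9 CPM. All members summed to 2158 to 3396 CPM in the ctrl-OE libraries, 2259 to 3152 in MEIS1-OE, 2269 to 2965 in MEIS2-OE, 3051 to 4105 in ctrl-KO, 3550.0 to 5144 in MEIS1-KO and 3514 to 4477 in MEIS2-KO. Sums of CPM weight long transcripts and carry no test.

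Symbols that start with COL but fall outside the members include COL4A3BP, which encodes a ceramide transfer protein and no collagen, at 42.5 to 48.6 CPM over the 6 condition means. COL6A4P2, a pseudogene of a type VI chain, was at 0.153 CPM in ctrl-OE and 0.366 CPM in ctrl-KO, near the level of 3 counts. Antisense genes of COL4A2 and COL18A1 had at most 2 counts in any library.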
